A study of Mus musculus with 8 samples.

Results

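The genes described here are 31 mouse genes of cholesterol synthesis and transport, a function that astrocytes and oligodendrocytes share. They were chosen by name for what their products do, and all 31 were found among the 20722 autosomal protein-coding genes of the annotation. Each was measured over its promoter, taken as 1 kb to either side of the transcription start site (TSS) of its principal transcript, and over its gene body with 5 kb added at each end. SOX9 CUT&Tag was measured in mouse spinal cord. In this assay an antibody brings a transposase to the protein it recognises, and the transposase inserts sequencing adapters into the DNA around it. There were 4 libraries made with SOX9 antibody and 4 secondary-only controls, made without it. Each of the 4 groups, SOX9 or control and uninjured or 1 day after injury (1 dpi), had 1 library from a male (M) and 1 from a female (F), or 2 libraries. All mice were wild-type C57BL/6. By the methods they entered the study at an age of 8 to 12 weeks, and the paper's reporting summary gives a wider range for their use. The injured ones received a mid-thoracic contusion 1 day earlier, and a 5 mm segment around the injury, or the same level of uninjured cords, was taken. Nuclei came from frozen tissue. The deposited record gives a sort on the DNA stain 7AAD and names no cell marker, whereas the paper's methods refer to an earlier sort that also used antibodies to NEUN or SOX10, so the sources do not settle which cell types the nuclei represent. Of the 150000 nuclei of a sample, 20% were set aside as its secondary-only control. The methods state that the sequencing experiments pooled 2 to 4 animals per condition, females and males alike in number, but not how many went into each of these libraries. The replicates of a group differ by sex, so the p-values below measure the spread between these samples and not between like animals.

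Cells make cholesterol from acetyl-CoA by way of mevalonate, squalene and lanosterol. When sterols are low, the protein SCAP carries the factors SREBP1 and SREBP2, products of Srebf1 and Srebf2, to the Golgi, where they are released to switch on the genes of synthesis and uptake, while the INSIG proteins hold them back when sterols are plentiful. Excess sterol activates the LXR receptors, which turn on efflux. In the central nervous system astrocytes supply cholesterol to neurons, oligodendrocytes need it for myelin, and the transcription factor SOX9 marks astrocytes and glial progenitors.

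The libraries differed in depth and in how strongly they covered promoters, and this bears on the results that follow. The SOX9 libraries held 1891276 fragments in uninjured M, 7216730 in uninjured F, 2529356 in 1 dpi M and 2385009 in 1 dpi F. Promoters of all coding genes took 7.05%, 12.3%, 9.93% and 8.17% of these fragments, so that uninjured F was the deepest library and the one with the largest share in promoters. The 31 member promoters took 0.0296% of fragments in uninjured M (95% Wilson interval 0.0272 to 0.0321), 0.0509% in uninjured F (0.0493 to 0.0526), 0.0416% in 1 dpi M (0.0392 to 0.0442) and 0.0330% in 1 dpi F (0.0308 to 0.0354). Intervals cover counting error only. The members' part of the promoter fragments was 0.419%, 0.413%, 0.419% and 0.405% in the same order, a range far narrower than that of their share of all fragments.

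The controls were sparse, with 22752 fragments in uninjured M, 46846 in uninjured F, 52950 in 1 dpi M and 10906 in 1 dpi F. Member promoters held 13, 15, 20 and 5 of them. Set against an even spread over the genome, this was 25.1-fold (14.7 to 42.9) in uninjured M, 14.1-fold (8.53 to 23.2) in uninjured F, 16.6-fold (10.7 to 25.6) in 1 dpi M and 20.1-fold (8.60 to 47.1) in 1 dpi F. The same measure in the SOX9 libraries was 13.0, 22.4, 18.3 and 14.5-fold, within the control intervals in 1 dpi M and 1 dpi F and in uninjured F, and below the interval in uninjured M. Fragments with the same ends also recurred between the controls and the SOX9 libraries. Of control fragments that lay apart from any other, 93.5%, 82.3%, 86.0% and 91.4% had the same start and end in a SOX9 library, against 3.93%, 1.66%, 2.66% and 2.94% between a SOX9 library and the other SOX9 libraries. In member promoters 41 such control fragments were seen, 10, 15, 11 and 5 by library, and 10, 13, 11 and 4 of them were found in a SOX9 library. Whether the control fragments came from the SOX9 libraries was not tested. If they did, the folds of the controls are no level without antibody, and their nearness to those of the SOX9 libraries is built in. Whether coverage at these promoters exceeds that without the SOX9 antibody could therefore not be measured, and the values below describe the SOX9 libraries alone. The values of each library are printed for the genes described most fully and a mean for the others.

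Coverage is given as a multiple of the library mean, the average coverage over the genome, and the values of the SOX9 libraries follow the order uninjured M, uninjured F, 1 dpi M, 1 dpi F. Promoters of the cholesterol genes were highly covered in each of the 4 SOX9 libraries. Their median was 10.4, 25.1, 15.6 and 11.2 times the library mean, against 3.03, 5.16, 3.96 and 3.53 for all coding promoters. By the mean of the 4 libraries the median member stood at 16.5, above 91.1% of coding genes, where the median of all was 4.10. Of the 31 members, 16 were in the top 10% of coding promoters, 22 in the top 25% and 3 below the median, and 27 lay above the median coding promoter in all 4 libraries. Uninjured F was the highest library at 22 of the 31 promoters (71.0%, against 50.7% of all) and exceeded uninjured M at 28 (90.3%, against 74.8%). Scaled by the median promoter it was highest at 9 (29.0%, against 21.1%) and exceeded uninjured M at 15 (48.4%, against 50.6%), so the order of the libraries, also at the single genes below, is that of coverage over the library mean. The 16 genes of synthesis steps had a median of 18.8 and all lay above the coding median, 11 of them in the top 10%. The 15 other members had a median of 9.56 and included the 3 below it, but also 5 in the top 10% and the 2 highest promoters, Insig1 and Srebf2. The difference was not tested. These are levels in bulk nuclei, where fewer cells of a type and less signal per cell cannot be told apart.

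**Figure D1:**
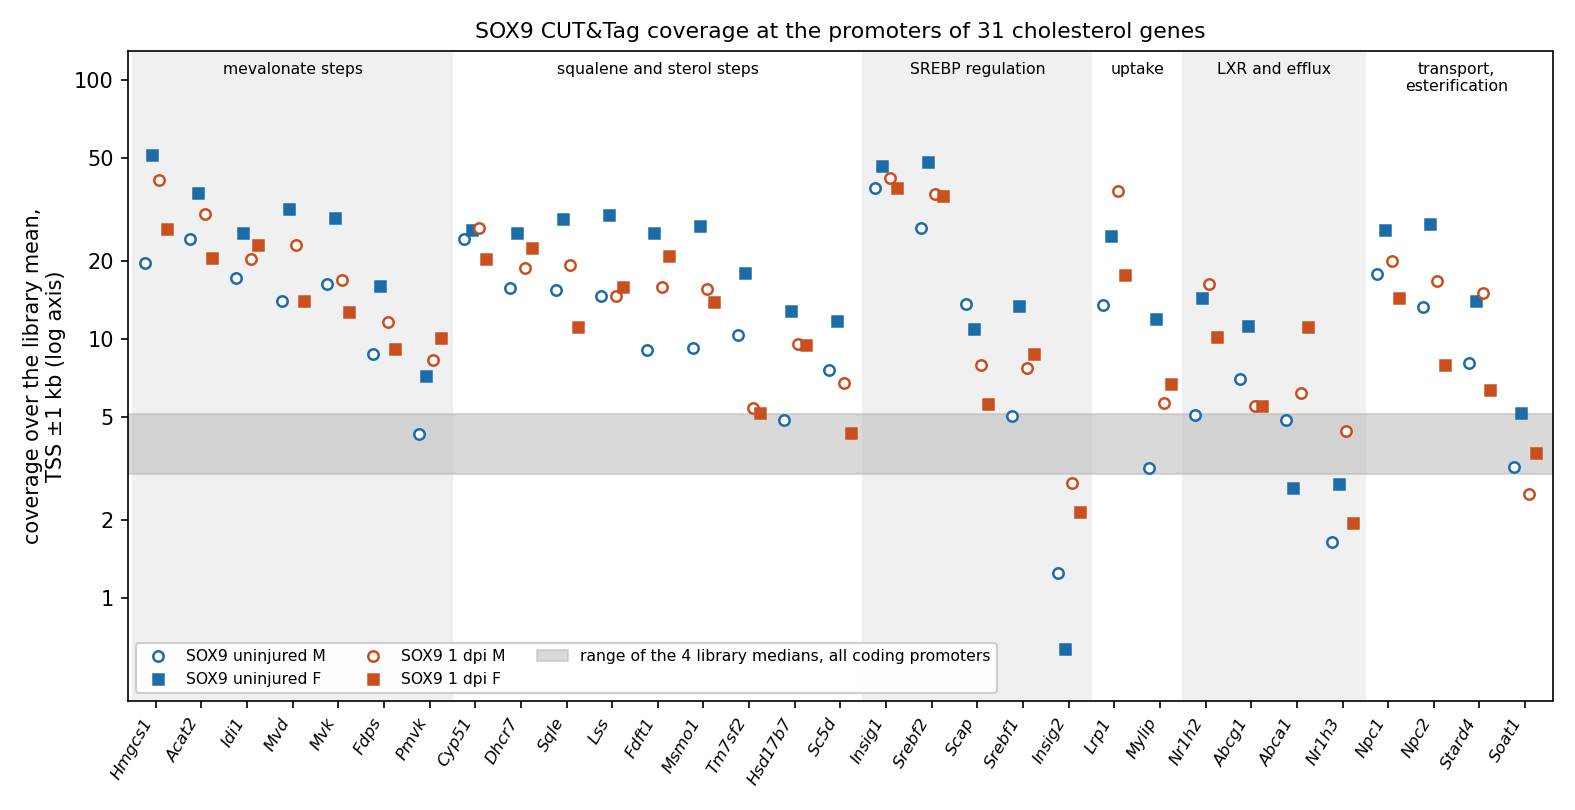
Coverage over the library mean within 1 kb of the TSS (log axis) for each of the 31 genes, grouped by role, with 1 point per SOX9 library. The grey band spans the 4 library medians of all coding promoters, 3.03 to 5.16, and 27 genes lie above the median of the library in all 4.

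Averaged over the members in 100-bp steps, coverage was highest at 200 to 100 bp upstream in 3 libraries, at 24.9 in uninjured M, 57.1 in uninjured F and 36.9 in 1 dpi M, and at 100 to 0 bp upstream in 1 dpi F, at 29.2. This was 9.06, 18.7, 13.2 and 9.02 times the flanks, the outer 500 bp of windows reaching 2000 bp to either side. All coding genes peaked at 100 to 0 bp upstream in each library, at 8.56, 19.7, 13.1 and 10.2, or 4.05, 7.57, 5.53 and 4.68 times their flanks. By role the place of the peak varied. It lay within 200 bp of the TSS in the other 4 roles, but 300 to 900 bp upstream for the 2 genes of uptake and 100 to 1100 bp downstream for the 4 of LXR and efflux. Peak heights had the same library order in members and in all genes, while the ratios to the flanks did not: uninjured M and 1 dpi F were near each other in members (9.06 and 9.02) and 1 dpi F was the higher of the 2 in all genes (4.68 against 4.05).

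**Figure D2:**
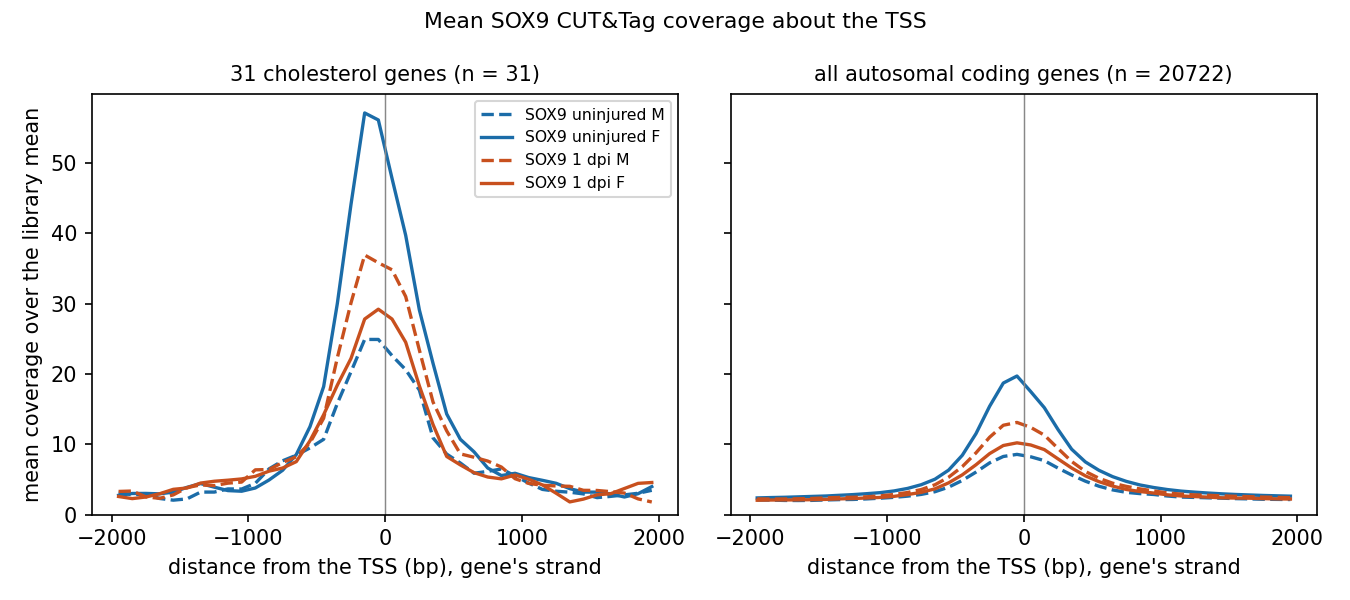
Mean coverage over the library mean (y axis) against distance from the TSS in bp on the gene's strand (x axis), for the 31 cholesterol genes (left) and all 20722 autosomal coding genes (right), 1 line per SOX9 library. The members peak at 24.9 to 57.1 and all coding genes at 8.56 to 19.7, with uninjured F highest in both.

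The base composition of the promoters was measured too. Promoters rich in CpG, defined here as at least 55% G+C and an observed over expected CpG ratio of at least 0.65 in the 300 bp from 250 bp upstream of the TSS, were 21 of the 31 members (67.7%) and 37.9% of all coding genes. Median G+C was 62.3% in members and 56.3% in all, and the median CpG ratio 0.780 and 0.573. Within the CpG-rich class, the members' median coverage was 16.6 against 8.53 for all 7852 CpG-rich genes. The median such member exceeded 82.8% of the class, with 12 in its top 25% and 5 below its median. The 10 other members had a median of 10.7, against 1.77 for all other genes. This comparison within the class was added after the levels had been seen.

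Injury was compared by limma on the 4 SOX9 libraries, with a change given as a log2 difference, 1 dpi minus uninjured, with its standard error (SE) and a p-value adjusted over all genes tested by Benjamini-Hochberg. A gene was called at an adjusted p under 0.05 and tested where its mean coverage reached the library mean, and all 31 members were tested at both promoter and gene body. The uninjured mean of the Insig2 promoter (0.946) and of the Abca1 body (0.929) was under this filter. These 2 passed only through the 1 dpi libraries, had to be higher there, and their place in the counts below is no support. No member promoter was called, 0 of 31 higher and 0 of 31 lower at 1 dpi by limma, where 0.0127% of the 15754 promoters tested were called higher and 0% lower. At an unadjusted p under 0.05 the counts were 0 members in either direction, beside 125 promoters higher and 127 lower among all tested. The 2 promoters called were those of Gm11361 and Ftl1-ps1. Leaving out a library gave 0 calls among all promoters without uninjured M, 5 without uninjured F, 0 without 1 dpi M and 0 without 1 dpi F, and 0 members each time. With 2 libraries a group and an SE of 0.65 or more at each member promoter, a p over the threshold does not show that the promoters did not differ.

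With coverage over the library mean, the direction differed between M and F, and this depended on the scaling. The median member promoter was higher by 0.33 on the log2 scale at 1 dpi in M and lower in F (-0.78), and the medians of all promoters tested were 0.44 and -0.58. Higher in M and lower in F were 23 of the 31 members, 3 were higher in both and 5 lower in both. Among all 15754 promoters the counts were 9316, 1941 and 3285, with 1207 lower in M and higher in F. Scaled by the median promoter, the member medians were -0.09 in M and -0.21 in F, beside 0.04 and -0.04 for all promoters. Then 6 members were higher in M and lower in F, 6 the reverse, 8 higher in both and 11 lower in both. With trimmed-mean scaling the medians were 0.47 and -1.02, and 23 members were again higher in M and lower in F. Over both sexes the median member change was -0.12 and that of all promoters -0.07. It was -0.61 without uninjured M, 0.33 without uninjured F, -0.20 without 1 dpi M and -0.03 without 1 dpi F, beside -0.50, 0.31, -0.17 and 0.05 for all promoters, so that the sign turned without uninjured F. The promoter share of the libraries, 7.05% and 12.3% in uninjured M and F against 9.93% and 8.17% at 1 dpi, moved the same way, and its part in these changes was not tested.

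At 7 member promoters the groups did not overlap. Both 1 dpi libraries were above both uninjured ones at 3 members (Pmvk, Insig2 and Abca1), where 7.18% of all promoters tested were, and below at 4 (Tm7sf2, Sc5d, Scap and Abcg1), where 14.4% were. The shares of members, 9.68% and 12.9%, are near those of all genes. Scaled by each library's median promoter in place of its mean, 5 members (16.1%) lay above, against 15.3% of all promoters. Below lay 10 (32.3%), against 16.4% of all, a difference that was not tested. Abca1 was no longer among the members whose groups did not overlap. The members gained were Lrp1, Nr1h2 and Nr1h3 above and Mvk, Fdps, Sqle, Lss, Npc1 and Npc2 below. Overlap at the single genes below is that of coverage over the library mean, unless stated.

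**Figure D3:**
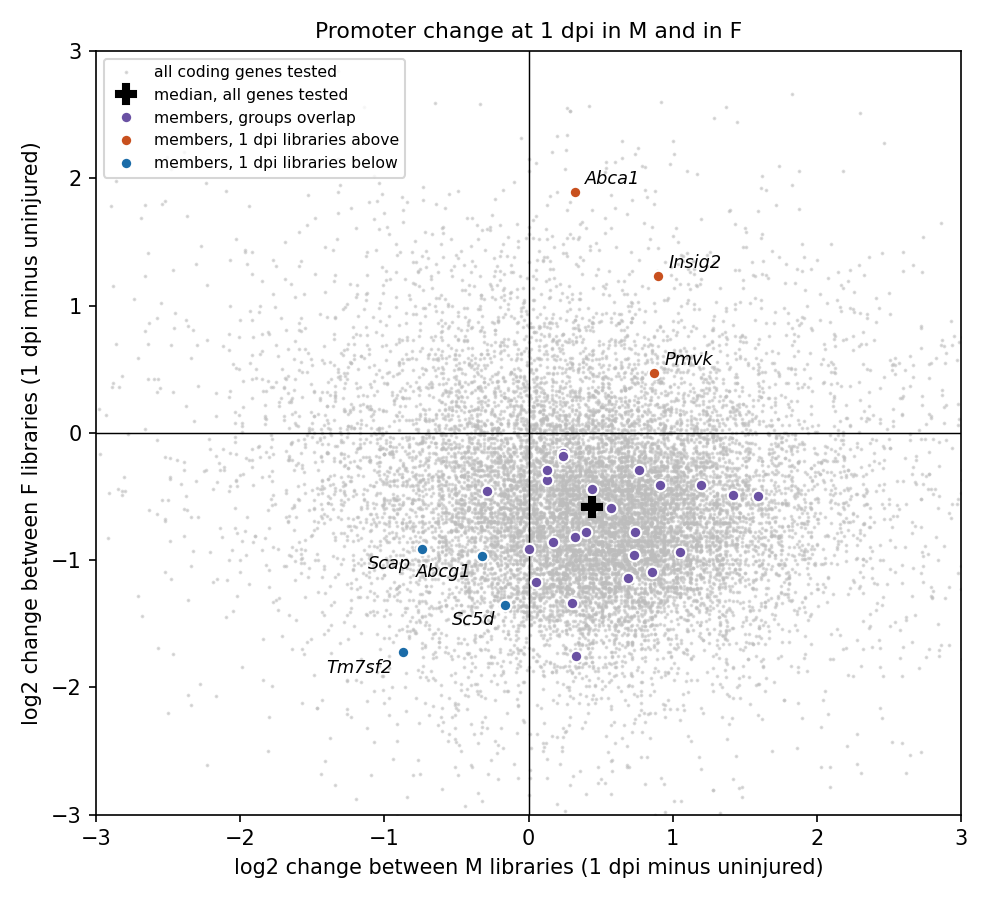
Log2 change of promoter coverage in M (x axis) and in F (y axis), 1 dpi minus uninjured, with 1 point per gene, members in colour and 121 genes outside the range not shown. The cross marks the medians of all genes tested, 0.44 and -0.58, and 23 of the 31 members lie at lower right, higher in M and lower in F. Scaled by the median promoter, 6 members do, and the member medians are -0.09 in M and -0.21 in F.

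The 7 genes of the mevalonate steps, from acetyl-CoA to farnesyl pyrophosphate, had a median promoter level of 20.8, and 5 of them were in the top 10% of coding promoters. Hmgcs1, which makes HMG-CoA, the precursor of mevalonate, had coverage of 19.7, 51.6, 41.4 and 26.6 times the library mean (mean 34.8, SD 14.4, n = 4). Uninjured M was the lowest and uninjured F the highest, so the conditions overlapped, and the log2 change was 0.05 (SE 0.76, limma adjusted p 1.00). Acat2, which joins acetyl-CoA units in the step before, had 24.4, 36.7, 30.6 and 20.6 (mean 28.1, SD 7.08). Its groups overlapped as well, with a change of -0.25 (SE 0.74, limma adjusted p 1.00). Mvd, Idi1 and Mvk, which decarboxylate, isomerise and phosphorylate the intermediates, had means of 20.8, 21.6 and 18.9, and Fdps, the farnesyl pyrophosphate synthase, 11.4. Pmvk, the phosphomevalonate kinase, was the lowest of the 7 and had 4.31, 7.21, 8.32 and 10.1 (mean 7.49, SD 2.44). Both of its 1 dpi libraries were above both uninjured ones, with a log2 change of 0.67 (SE 0.66, limma adjusted p 1.00) that was 0.33 without uninjured M and 1.01 without uninjured F. Measured at the 5′ end of the gene in place of the principal TSS, the change of Pmvk was -0.37.

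The 9 genes of the squalene and sterol steps had a median of 17.9, with 6 in the top 10%. Cyp51, the lanosterol demethylase, had the highest mean, 24.5, followed by Dhcr7, the reductase of the last step of 1 branch, at 20.7, and by Sqle, the squalene epoxidase, and Lss, the lanosterol synthase, both at 18.8. Cyp51 had 24.5, 26.5, 26.8 and 20.4 (SD 2.97), or 31.6, 19.6, 25.4 and 22.5 when scaled by the median promoter. Fdft1, the squalene synthase, stood at 17.9, Msmo1, a sterol methyl oxidase, at 16.6 and Hsd17b7, a ketosteroid reductase, at 9.21. Tm7sf2, a sterol reductase, had 10.4, 18.1, 5.43 and 5.17 (mean 9.77, SD 6.06). Both 1 dpi values lay well under both uninjured ones, and the log2 change of -1.30 (SE 0.67, limma adjusted p 1.00) was the lowest of the 31 members. Sc5d, a sterol desaturase, had 7.62, 11.8, 6.77 and 4.33 (mean 7.62, SD 3.10). Its 1 dpi libraries were also below, by a narrow margin in M, with a change of -0.75 (SE 0.66, limma adjusted p 1.00). It was -0.45 without uninjured F, -0.46 without 1 dpi F and -0.38 within 2 kb of the TSS. The other 7 genes overlapped between conditions, and uninjured F was the highest library at 8 of the 9, or at 3 when scaled by the median promoter.

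The regulators of SREBP held both the highest and the lowest promoters of all 31. Insig1, whose product retains SCAP in the endoplasmic reticulum, had 38.3, 46.8, 42.1 and 38.3 (mean 41.4, SD 4.03), above 99.2% of coding promoters. The 4 libraries were close and overlapped between conditions, with a change of -0.08 (SE 0.78, limma adjusted p 1.00). Srebf2, the gene of the factor that chiefly drives cholesterol synthesis, had 26.8, 48.4, 36.5 and 35.7 (mean 36.8, SD 8.88). Both 1 dpi values lay between the uninjured ones and the change was 0.00 (SE 0.77, limma adjusted p 1.00). Srebf1, which favours fatty acid genes, stood lower at the start site used, at 5.05, 13.5, 7.73 and 8.79 (mean 8.77). A window 2.43 kb upstream, near another start of the gene, had a mean of 21.7. Measured at the 5′ end of the gene, both 1 dpi libraries of Srebf1 were above both uninjured ones, as at 7.37% of all promoters tested. Scap had 13.7, 11.0, 7.96 and 5.61 (mean 9.56, SD 3.52). It was lower at 1 dpi in both sexes and did not overlap, with a change of -0.83 (SE 0.67, limma adjusted p 1.00). Insig2, a relative of Insig1 with a like role, had 1.25, 0.637, 2.78 and 2.16 (mean 1.71, SD 0.951), above 32.2% of coding promoters. The values rest on 2, 5, 4 and 3 fragments, and the log2 change of 1.07 (SE 0.57, limma adjusted p 1.00, both without the filter) rests on these few fragments as well. Within 500 bp of the TSS it was 0.27 and the groups overlapped. At the start sites used, the means of the related pair Insig1 and Insig2 were thus 41.4 and 1.71. Insig2 has another coding start site within the gene, and the promoter there was not measured by itself. Over gene bodies, which take that site in, the means were 7.86 for Insig1 and 1.46 for Insig2.

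Uptake was represented by Lrp1, a receptor for lipoproteins, and Mylip, a ubiquitin ligase that removes lipoprotein receptors. Lrp1 had 13.6, 25.1, 37.4 and 17.7 (mean 23.5, SD 10.4) and was highest in 1 dpi M. Mylip had a mean of 6.90 (SD 3.70, n = 4) and was highest in uninjured F. Both overlapped between conditions, with changes of 0.46 (SE 0.72) and -0.02 (SE 0.66).

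The 4 genes of LXR and efflux had the lowest median promoter level of the roles, 6.79, and none was in the top 10%. This did not hold over gene bodies, where their median was 3.67 and those of the other roles ran from 2.38 to 6.25. Nr1h2, the gene of LXR-beta, had 5.12, 14.5, 16.4 and 10.2 (mean 11.6), and Nr1h3, that of LXR-alpha, 1.65, 2.77, 4.43 and 1.95 (SD 1.25). Both overlapped between conditions, and Nr1h3 lay below the coding median, with a change of 0.39 (SE 0.72, limma adjusted p 1.00). The gene Nr1h3 reaches upstream of the start site used, and its gene body stood above 82.3% of coding genes. Abca1, the transporter that loads cholesterol onto lipid-poor apolipoproteins, had 4.86, 2.66, 6.19 and 11.2 (mean 6.24, SD 3.63), above 62.3% of coding promoters. Both 1 dpi libraries were above both uninjured ones, and the log2 change of 1.11 (SE 0.65, limma adjusted p 1.00) was the highest of the 31. It was 0.73 without uninjured F, the lowest of the 4 values, and 0.70 without 1 dpi F, the highest. Scaled by the median promoter, its values were 6.27, 1.96, 5.88 and 12.4, and the groups overlapped. Abcg1, which passes cholesterol to larger lipoproteins, had 7.05, 11.3, 5.54 and 5.52 (mean 7.34, SD 2.71). Both 1 dpi libraries were below, with a change of -0.64 (SE 0.66, limma adjusted p 1.00) that was -0.96 without uninjured M, -0.32 without uninjured F and 0.39 in a window of 500 bp to either side of the TSS. The 2 efflux transporters thus stood on opposite sides of 0, and that difference was not tested.

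Of the 4 genes of intracellular transport and esterification, Npc1 and Npc2, which move cholesterol out of lysosomes, had means of 19.7 and 16.5, and Stard4, a sterol carrier, 10.9. Npc2 had 13.3, 28.0, 16.8 and 7.99 and was the widest of these, with 1 dpi F lowest. Soat1, which esterifies cholesterol for storage, had 3.20, 5.20, 2.53 and 3.63 (mean 3.64, SD 1.13), below the coding median. All 4 genes overlapped between conditions, and the change of Soat1 was -0.38 (SE 0.67, limma adjusted p 1.00). Some members share their promoter with a neighbour, so that the coverage is not theirs alone: the TSS of Mvk lies 246 bp from that of Mmab, that of Fdps 860 bp from Gm43738, that of Dhcr7 326 bp from Nadsyn1 and that of Npc2 99 bp from Isca2.

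Over gene bodies coverage was lower, with member medians of 3.09, 4.66, 3.80 and 3.62 against 1.54, 1.76, 1.64 and 1.61 for all coding genes. The median member stood above 82.3% of coding genes, and 9 were in the top 10%. Limma called 0 of 31 members higher and 0 of 31 lower at 1 dpi, where 0.242% of 14067 gene bodies tested were called higher (34) and 0.0569% lower (8). At an unadjusted p under 0.05, 2 members were higher and 0 lower, beside 335 and 278 of all gene bodies. Among all genes the 42 calls became 0 without uninjured M, 0 without uninjured F, 27 without 1 dpi M and 6 without 1 dpi F, with 0 members each time. The median member change was -0.06 and that of all -0.05, with 0.19 in M and -0.42 in F for members, against 0.14 and -0.24 for all. Scaled by the median promoter the signs turned, to -0.20 in M and 0.12 in F for members and -0.23 and 0.24 for all. Without uninjured M the median change over both sexes was -0.29, without uninjured F 0.08, without 1 dpi M -0.16 and without 1 dpi F 0.01, so that its sign turned without either F library.

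Both 1 dpi libraries were above both uninjured ones at the bodies of 3 members (10.6% of all genes tested) and below at 4 (15.8%). With median-promoter scaling 5 were above (12.3% of all) and 3 below (10.9%), with trimmed-mean scaling 2 (5.00%) and 2 (11.3%), and after thinning to the smallest SOX9 library 5 (12.1%) and 6 (15.6%). The 2 with an unadjusted p under 0.05 were Abca1 and Hsd17b7, chosen after their values were seen. The Abca1 body had 1.01, 0.852, 1.56 and 1.77 times the library mean. It was near the genome average in uninjured cord and higher in both 1 dpi libraries, by 0.60 on the log2 scale (SE 0.18, limma adjusted p 0.948, both without the filter, which it passed only through 1 dpi). The Hsd17b7 body had 1.07, 1.55, 2.08 and 2.08. The 1 dpi libraries were alike and above both uninjured ones, with a change of 0.52 (SE 0.20, limma adjusted p 0.523). The change was 0.33 without uninjured M and 0.31 to 0.72 over 15 settings, with adjusted p from 0.186 to 1.00. Idi1 was the other gene above, by a small margin (3.83, 3.96, 4.17 and 3.98). Tm7sf2 (6.36, 9.85, 5.89 and 4.85), Lss (2.80, 3.70, 1.96 and 2.49), Scap (4.04, 4.77, 3.80 and 3.24) and Mylip (change -0.19, SE 0.20) were below. Tm7sf2 and Scap were thus below at both promoter and body, windows that share their bases. Abca1 was above at both, but its body had to be higher at 1 dpi by the filter, so this is no support.

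A list of 32 other genes of sterol and lipid metabolism was measured beside the members. Their promoters had a median of 9.49, and 0 of 31 tested were called in either direction by limma, with 0 at an unadjusted p under 0.05. The promoters with the largest changes were Ch25h, a sterol hydroxylase, at 1.61, 3.07, 0.919 and 0.681 (-1.08, SE 0.86), Clu, a secreted apolipoprotein, at 1.39, 9.02, 9.96 and 6.70 (1.03, SE 0.65), and Apod, another apolipoprotein, at 7.49, 7.01, 13.5 and 14.1 (0.89, SE 0.68). The 1 dpi mean of Ch25h was under the filter. This promoter passed only through the uninjured libraries and had to be lower at 1 dpi, so its place among the largest changes is no support. Of 30 gene bodies tested, 1 was called higher and 0 lower. It was Apod, with 2.01, 3.20, 7.09 and 7.95, and both 1 dpi libraries were above both uninjured ones. The Apod body rose by 1.39 on the log2 scale (SE 0.34, limma adjusted p 0.0228, higher in both sexes). Leaving out any 1 library kept a change of 1.11 to 1.67 but not the call. Each such fit has 1 library in an arm, taken to vary like those of the other, and the adjusted p was 0.314 without uninjured M, 0.101 without uninjured F, 0.984 without 1 dpi M and 1.00 without 1 dpi F. With M or F as a replicate block it was 0.609. Of 16 other settings 13 lost the call and 3 kept it, namely median-promoter scaling and the 2 other pseudocounts, with adjusted p from 4.17e-08 to 1.00 over the 16. Abcg4 (-0.46, SE 0.34) and Aup1 (-0.34, SE 0.40) had the next largest changes among these gene bodies.

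Marker genes were read as a check of the tissue label. Of the oligodendrocyte lineage, 8 promoters had a median of 8.40, led by Cnp at 20.9, 35.6, 35.6 and 25.6. The 5 neuron markers had 6.53, led by Syt1 (mean 10.6), and the 8 astrocyte markers 4.40, led by Slc1a2 (mean 14.7). The 5 microglia and macrophage markers had 2.66 and the 4 endothelial markers 1.98, both lists below the coding median of 4.10. Gja1 of astrocytes and Pdgfra of oligodendrocyte progenitors had 0 in uninjured M, and P2ry12 of microglia 0 in 1 dpi M. Of these lists 7, 7, 5, 4 and 4 promoters, for astrocytes, oligodendrocyte lineage, neurons, microglia and endothelium, were tested, and limma called 0, with 0 at an unadjusted p under 0.05. The median change of the tested promoters was 0.38, 0.14, -0.15, -0.04 and -0.23 in the same order, beside -0.07 for all promoters. The 2 markers with the largest changes in a list went opposite ways in 4 of the 5 lists: Slc1a3 (-0.69, SE 0.71) and Gfap (0.51, SE 0.66) of astrocytes, Snap25 (-0.76, SE 0.66) and Gad1 (0.28, SE 0.66) of neurons, Cx3cr1 (1.16, SE 0.73) and Aif1 (-0.71, SE 0.73) of microglia, and Pecam1 (-1.06, SE 0.88) and Flt1 (1.06, SE 0.76) of endothelium. In the oligodendrocyte list they were Opalin (0.98, SE 0.67) and Cspg4 (0.63, SE 0.66). The Pecam1 promoter (3.08, 1.29, 0.682 and 0.748) had a 1 dpi mean under the filter. It passed only through the uninjured libraries and had to be lower at 1 dpi, so its place among the opposite pairs is no support. Over gene bodies 0 markers were called. Both 1 dpi libraries were above both uninjured ones at 3 of 7 astrocyte bodies tested, among them Gfap (3.28, 3.58, 5.82 and 5.17), 3 of 5 of microglia, 1 of 8 of the oligodendrocyte lineage, 0 of 5 of neurons and 0 of 2 of endothelium, where 10.6% of all gene bodies were. They were below at 0, 0, 1, 4 and 0 of these, against 15.8% of all. The oligodendrocyte body above was that of Pdgfra, with an uninjured mean under the filter. It passed only through the 1 dpi libraries and had to be higher there. Among the neuron bodies below, that of Slc17a6 had a 1 dpi mean under the filter and had to be lower at 1 dpi. The places of Pdgfra and Slc17a6 in these body counts are no support. Scaled by the median promoter, 2, 1, 3, 0 and 0 bodies of the same lists were above (12.3% of all) and 0, 0, 0, 1 and 0 below (10.9%). The part of cell types in the members' values was not tested.

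Promoter sequences of 25 of the 31 members were found in RefSeq (build GRCm38.p6), each from 250 bp before to 50 bp after the start. No match was made for Fdft1, Sqle, Abcg1, Stard4, Npc1 and Fdps. Short motifs were searched on both strands, in the 300 bp about the TSS used here for all members and all coding genes. The letters CCAAT, bound by NF-Y, a factor that works with SREBP, were in 21 of 31 members (67.7%), against 38.2% of all coding promoters and 35.7% of CpG-rich ones. Of the sterol response element only the exact letters TCACCCCAC were searched, and the name stands for these letters here. They were in 1 member, Hmgcs1 (3.23%), against 0.521% of all and 0.420% of CpG-rich ones. Forms of the element that differ by a base were not searched, so members without a match may hold one. An E-box, CACGTG, was in 5 (16.1%, against 7.77% and 11.8%). A SOX motif, ACAAAG or ACAATG, was in 6 (19.4%), below the 24.8% of all and above the 13.6% of CpG-rich promoters, and an AP-1 motif, TGACTCA or TGAGTCA, which are the reverse complements of each other, in 0 (0%, against 4.42% and 2.23%). The RefSeq windows can differ from these by their start site: that of Msmo1, 214 bp away, holds 1 AP-1 match, and that of Idi1, 105 bp away, 2 CCAAT matches. None of these motifs contains another, but the matches of different motifs can share letters at their ends. A match is a description of the letters and not a bound site. The promoters below are those of the 4 highest members and of the members with the highest and the lowest change, given 5′ to 3′ on the gene's strand with the sterol response element and the CCAAT motif, in either orientation, in capitals. Hmgcs1 is at chr13:119690101-119690400 (+), Insig1 at chr5:28071162-28071461 (+), Srebf2 at chr15:82147019-82147318 (+), Acat2 at chr17:12960676-12960975 (-), Tm7sf2 at chr19:6067801-6068100 (-) and Abca1 at chr4:53159846-53160145 (-).
Hmgcs1: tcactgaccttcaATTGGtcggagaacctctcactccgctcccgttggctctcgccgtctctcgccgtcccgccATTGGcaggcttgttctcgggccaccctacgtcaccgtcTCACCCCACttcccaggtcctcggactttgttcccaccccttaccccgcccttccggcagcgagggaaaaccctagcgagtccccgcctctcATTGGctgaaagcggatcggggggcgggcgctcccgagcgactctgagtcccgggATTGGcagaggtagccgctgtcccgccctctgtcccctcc
Insig1: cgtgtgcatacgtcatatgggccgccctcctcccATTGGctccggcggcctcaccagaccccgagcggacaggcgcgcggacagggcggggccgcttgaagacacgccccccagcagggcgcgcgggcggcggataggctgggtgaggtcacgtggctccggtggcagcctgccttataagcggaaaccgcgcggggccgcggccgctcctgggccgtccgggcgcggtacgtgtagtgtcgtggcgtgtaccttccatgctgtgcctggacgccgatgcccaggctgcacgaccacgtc
Srebf2: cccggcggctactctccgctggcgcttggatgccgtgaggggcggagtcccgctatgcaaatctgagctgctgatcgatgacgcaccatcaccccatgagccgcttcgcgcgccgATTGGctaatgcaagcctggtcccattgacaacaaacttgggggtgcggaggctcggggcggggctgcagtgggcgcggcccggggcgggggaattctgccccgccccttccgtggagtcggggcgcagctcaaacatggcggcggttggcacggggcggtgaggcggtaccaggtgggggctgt
Acat2: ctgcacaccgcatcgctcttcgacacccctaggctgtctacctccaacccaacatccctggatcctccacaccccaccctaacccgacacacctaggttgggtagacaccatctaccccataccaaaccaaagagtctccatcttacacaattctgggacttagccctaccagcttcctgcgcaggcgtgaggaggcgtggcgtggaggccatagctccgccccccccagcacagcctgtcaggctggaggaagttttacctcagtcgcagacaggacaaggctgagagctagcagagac
Tm7sf2: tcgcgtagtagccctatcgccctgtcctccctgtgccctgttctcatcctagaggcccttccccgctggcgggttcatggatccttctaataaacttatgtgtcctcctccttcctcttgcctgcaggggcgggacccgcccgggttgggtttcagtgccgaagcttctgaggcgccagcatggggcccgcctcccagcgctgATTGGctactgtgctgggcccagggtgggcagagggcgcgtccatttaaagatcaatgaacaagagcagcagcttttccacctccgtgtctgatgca
Abca1: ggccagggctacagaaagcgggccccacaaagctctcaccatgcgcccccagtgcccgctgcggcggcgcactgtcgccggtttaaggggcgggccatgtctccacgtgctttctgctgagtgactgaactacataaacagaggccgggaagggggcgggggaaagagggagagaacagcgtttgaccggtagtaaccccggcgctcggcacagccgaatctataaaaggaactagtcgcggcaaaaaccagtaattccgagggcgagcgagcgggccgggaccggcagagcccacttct
Hmgcs1 has 4 CCAAT matches and the sterol response element between them, Insig1, Srebf2 and Tm7sf2 have 1 CCAAT match each, and Acat2 and Abca1 have 0 in these windows.

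Away from the start sites of coding transcripts, the most covered 500-bp window of each member's body and flanks, outside 1 kb of any such site, was taken as a description, since the windows were chosen by their coverage. The 31 windows had a median of 7.28, from 3.97 to 33.7, and lay in an intron (7), in an exon (10), upstream (7) or downstream (7). The same search over all 20722 coding genes, added after the members' windows had been seen, gave a median of 5.83. At 8 members (25.8%) both 1 dpi libraries were above both uninjured ones and at 3 (9.68%) below, where the shares of all genes were 16.9% and 13.7%. The window exceeded the gene's own promoter at 8 members (25.8%) and at 71.4% of all genes. A SOX motif was in 17 of 31 (54.8%) and an AP-1 motif in 4 (12.9%), against 48.3% and 9.93% of the windows of all genes.

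The highest 6 windows were as follows, in GRCm38 coordinates. The Srebf2 window, chr15:82206331-82206830, is downstream of the gene in an exon of Shisa8 and had 26.1, 42.8, 35.4 and 30.4. The Lrp1 window, chr10:127542161-127542660, is in an exon 78.7 kb from the TSS, with the start of a retained-intron transcript 548 bp away, and had 19.9, 32.2, 16.4 and 20.5. Both overlapped between conditions and were highest in uninjured F. The Srebf1 window, chr11:60222789-60223288, lies 2.43 kb upstream of the TSS used here and 208 bp from the start of a non-coding transcript of the same gene, so that it may belong to another promoter of Srebf1. It had 17.0, 25.4, 22.2 and 22.3, or 2.48 times the coverage around the TSS used. Both 1 dpi libraries were between the uninjured ones. The Mvd window, chr8:122444451-122444950, is 1.28 kb upstream of the TSS, within the gene Gm20388, and had 12.5, 18.1, 23.6 and 19.5. It was above in both 1 dpi libraries. The Scap window, chr9:110384388-110384887, is in an exon 1.61 kb from the TSS of Ptpn23 and had 16.3, 30.7, 16.0 and 5.04. Its 1 dpi libraries were below, in M by a margin smaller than 1 unit. The Abcg1 window, chr17:31113275-31113774, is in an intron 2.56 kb from another TSS of the gene and had 1.22, 26.2, 25.6 and 2.58. This window was high in 1 library of each condition and far lower in the other, the most uneven of the 6 (SD 13.9, n = 4).

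The 150 bases about the summit of 3 of these windows show what underlies them, the Srebf1 window as the one near a non-coding start site, and the Scap and Abcg1 windows as those with SOX motifs at the summit. They are given on the plus strand of GRCm38 with SOX motifs, in either orientation, in capitals, at chr11:60222969-60223118, chr9:110384688-110384837 and chr17:31113402-31113551.
Srebf1: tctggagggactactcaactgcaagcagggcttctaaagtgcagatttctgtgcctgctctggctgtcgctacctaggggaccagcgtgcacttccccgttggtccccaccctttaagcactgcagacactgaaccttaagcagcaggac
Scap: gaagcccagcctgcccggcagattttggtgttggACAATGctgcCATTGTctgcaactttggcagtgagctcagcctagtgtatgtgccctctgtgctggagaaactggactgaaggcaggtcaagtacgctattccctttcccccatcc
Abcg1: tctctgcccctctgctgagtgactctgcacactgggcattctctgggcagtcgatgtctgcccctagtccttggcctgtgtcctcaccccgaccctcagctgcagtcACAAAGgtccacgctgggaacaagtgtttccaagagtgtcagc
The Scap stretch holds 2 SOX motifs in opposite orientation, the Abcg1 stretch 1 and the Srebf1 stretch 0.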

How the data were processed

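Per the submitters' processing notes and the methods, the authors mapped paired-end reads to mm10 with Bowtie2 2.5.4, removed duplicates with Picard 3.4.0 and called peaks with SEACR 1.3. The signal deposited by the authors is a coverage track per library, in whole numbers of fragments and not scaled for depth. It held 20283253 stretches of 8 libraries with 0 overlaps within a library, and the step that wrote it is not stated. Fragments were rebuilt from rises and falls of the coverage, which gives depths of 10906 to 52950 in controls and 1891276 to 7216730 in SOX9 libraries and limits single windows in the controls to a few fragments. Window coverage was divided by the library mean over chromosomes 1 to 19, X and Y. Genes and principal transcripts came from GENCODE M21 on GRCm38.

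The change at 1 dpi was fitted by limma 3.58.1 (R 4.3.3) to log2(coverage over the library mean + 0.5) with a mean-variance trend, two-sided, over the 4 SOX9 libraries and the autosomal coding genes with mean coverage of at least 1, and the controls were left out of the fit. The fit was tested on simulated data. Other steps used Python 3.11.15, numpy 2.4.6, pandas 2.3.3, scipy 1.17.1 and matplotlib 3.10.9. The rule for genes named in full took the 4 highest and 4 lowest promoters, members called, up to 4 members in each direction whose groups did not overlap, the 6 highest windows, and 2 or 3 genes of each comparison list with the largest change. Other genes named were chosen after their values were seen. The members and lists were chosen with earlier results of these data known. Alternatives covered scaling by a trimmed mean of log ratios (trimming 30% of ratios and 5% of levels, over 10 kb bins) or by the median promoter, pseudocounts, filters, thinning of the libraries, a replicate block for M or F, a fit of all 8 libraries, other windows and each SOX9 library left out.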

Additional observations from a re-analysis of the deposited data

Results flagged for a closer look

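Scaled by the library mean, the change of the cholesterol genes at 1 dpi went opposite ways in the sexes. Between the M libraries the median member promoter was higher at 1 dpi, with a log2 change of 0.33, and between the F libraries it was lower, with -0.78. For gene bodies the medians were 0.19 in M and -0.42 in F. Each sex had a single library per condition, and whether M and F differ was not tested. Over all genes tested the medians were 0.44 and -0.58 for promoters and 0.14 and -0.24 for gene bodies. Scaled by the median promoter, both member promoter medians were lower (-0.09 in M and -0.21 in F) and those of gene bodies turned to -0.20 in M and 0.12 in F. The opposite signs thus depend on the scaling.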

How the results depend on the processing

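No member was called in either fit under any setting tried (0 of the members tested, 25 to 31 of them by filter and window). Among all promoters the 2 calls became 0 with trimmed-mean scaling, 10 with median-promoter scaling, 1 with a pseudocount of 2, 0 after thinning to the smallest SOX9 library, 1 with a replicate block, 0 in the fit of all 8 libraries, 0 without the filter, 1 within 500 bp of the TSS and 1 at the 5′ end of the gene, with 0 to 5 when 1 library was left out. The 42 gene body calls became 6 with trimmed-mean scaling, 22 with median-promoter scaling, 9 after thinning, 26 with the replicate block, 0 in the fit of all 8 libraries, 0 without the trend, 1 without the filter, 3 with a filter at 2 times the library mean, 0 without flanks and 1 without the TSS window, with 0 to 27 when 1 library was left out. A fit without 1 library has a single one in an arm, taken to vary like the other group. The cause of these shifts was not tested. The median member promoter was 9.15 in windows of 2 kb to either side of the TSS, which take in more of the flanks, beside 16.5. Median-promoter scaling raised the members whose promoter groups did not overlap from 7 to 15. The shares of members above and below went from 9.68% and 12.9% to 16.1% and 32.3%. Those of all promoters went from 7.18% and 14.4% to 15.3% and 16.4%. The same scaling also turned the median member promoter change in M from 0.33 to -0.09. In gene bodies it turned that in M from 0.19 to -0.20 and that in F from -0.42 to 0.12. The cause was not tested. The change of Pmvk turned to -0.37 at the 5′ end of the gene and that of Abcg1 to 0.39 within 500 bp of the TSS, and the cause was not tested. The change of Abca1 kept its sign in 17 of 17 settings (0.70 to 1.51), as did those of Tm7sf2 (-1.68 to -0.91), Sc5d (-1.05 to -0.38) and Scap (-1.07 to -0.59). That of Insig2 kept it in 15 of 15 (0.27 to 1.43). Many of these signs were fixed in advance. The genes were named because their groups did not overlap, so leaving out a library could not turn the sign. The replicate block, the fit of all 8 libraries, the trend and the filters do not alter the estimate. The Insig2 promoter also passed the filter only through 1 dpi. The kept signs in those settings are therefore no support. After thinning Abca1 and Sc5d no longer had separate promoter groups. The Apod body kept its sign in 16 of 16 settings (1.06 to 1.67) and its call in 3. Its groups did not overlap either, so its sign was fixed in the same settings. In the replicate block M and F name only a sex. Across the 15754 promoters the deviations of the M libraries from their group means correlated at -0.09 between conditions.

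Depth limits the low promoters most, as at Insig2 with 2 to 5 fragments. The controls are too sparse for single genes and share fragments with the SOX9 libraries, so SOX9-dependent coverage at these genes could not be separated from the rest.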
